A study of Mus musculus with 6 samples.

Results

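The interferon-inducible GTPases described here are 10 mouse genes chosen by name, namely the guanylate-binding proteins Gbp2, Gbp3, Gbp6, Gbp7 and Gbp9 and the immunity-related GTPases Irgm1, Irgm2, Igtp, Iigp1 and Ifi47. All 10 had a row among the 43629 gene identifiers of the count table, and 8 passed the filter on low counts that left 16829 genes for testing. Expression was measured by sequencing poly(A) RNA of cultured epidermal keratinocytes, the barrier-forming cells of the skin, from 3 control and 3 Dnmt1Δ/Δep mice. The knockout mice carried K5-Cre, a recombinase driven by the keratin 5 promoter of basal keratinocytes, and 2 floxed Dnmt1 alleles, so DNMT1, the enzyme that copies DNA methylation to newly made strands, was removed from the epithelium before birth. Control mice carried 1 or 2 floxed alleles without Cre, and which of these each control library carried is not given in the sources used here. All mice were female according to the labels, of mixed C57BL/6J and 129SV background, taken at postnatal day 3. Their keratinocytes were cultured for 5 days before RNA extraction according to the labels and the study's methods, whereas a legend of the study gives a shorter culture time. The comparison asks whether keratinocytes that lack DNMT1 switch on innate immune genes by themselves, outside the tissue.

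Both gene families code for GTP-hydrolysing proteins that cells make in large amounts after interferon treatment. Guanylate-binding proteins assemble on vacuoles that hold pathogens and on the surface of bacteria in the cytosol, where they open a way to caspase-11 and the inflammasomes. Among the immunity-related GTPases, Irgm1, Irgm2 and Igtp (also called Irgm3) are regulators that sit on the cell's own membranes and keep effectors such as Iigp1 (Irga6) and Ifi47 (Irgd) inactive there, so that the effectors load onto foreign vacuoles. Interferon acts on these genes through GAS and ISRE elements of their promoters, and interferon regulatory factors bind the latter.

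RefSeq promoter windows on GRCm38.p6, running from 250 bases before to 50 bases after the annotated start, matched 7 of the 10 genes. They are shown because 6 of these 7 genes hold a core of the interferon-stimulated response element, searched as GAAANNGAAA on both strands, against 3.44% of 32851 windows of the same length. The core of the gamma-activated site, TTCNNNGAA, which reads the same on both strands, lay in the windows of 3 of the 7 (Gbp7, Irgm2 and Igtp), against 8.3% of all windows. The runs below are written 5′ to 3′ on the strand of the gene, with the matches to either core in capitals and their flanks in lower case. Gbp2 lies at chr3:142620554-142620628 on the plus strand, Gbp3 at chr3:142559949-142560029 (plus), Gbp7 at chr3:142530180-142530307 (plus), Irgm1 at chr11:48871428-48871457 (minus), Igtp at chr11:58199461-58199546 (plus), Irgm2 at chr11:58214852-58214937 (plus) and Ifi47 at chr11:49076487-49076586 (plus).
Gbp2: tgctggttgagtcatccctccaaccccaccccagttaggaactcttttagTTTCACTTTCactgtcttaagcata
Gbp3: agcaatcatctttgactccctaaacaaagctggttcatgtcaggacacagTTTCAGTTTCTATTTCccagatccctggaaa
Gbp7: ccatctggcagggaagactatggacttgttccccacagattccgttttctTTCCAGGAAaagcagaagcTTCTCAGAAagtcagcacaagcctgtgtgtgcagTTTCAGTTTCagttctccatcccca
Irgm1: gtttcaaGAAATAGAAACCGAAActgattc
Igtp: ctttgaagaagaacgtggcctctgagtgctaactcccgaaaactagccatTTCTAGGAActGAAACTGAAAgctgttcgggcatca
Irgm2: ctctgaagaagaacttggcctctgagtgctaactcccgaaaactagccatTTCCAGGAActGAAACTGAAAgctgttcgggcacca
Ifi47: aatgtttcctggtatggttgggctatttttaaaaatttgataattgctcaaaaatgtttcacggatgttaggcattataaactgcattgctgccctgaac

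The ISRE cores lay close to the RefSeq start in all 6 genes, the nearest ending 15 bases before it in Irgm1 and the farthest beginning 64 bases before it in Irgm2. In Gbp2, Gbp3, Irgm1 and Irgm2 this start lies inside the span that the GENCODE annotation gives the gene. For Irgm2 the printed run begins at 58214852, well inside a span that begins at 58199618. In that annotation all 30 printed bases of Irgm1, 27 of those of Gbp2 and 4 of those of Gbp3 lie in exons. Gbp3 and Irgm1 each held 2 ISRE cores that overlap one another, and a second annotated start of Gbp3 held neither core. Igtp and Irgm2, whose GENCODE spans overlap on the same strand, shared an unbroken run of 55 identical bases within their 250 upstream bases. In both the GAS core stands just before the ISRE core. The 100 bases before the start of Ifi47 held no match to either core, as did the rest of its window. CpG sites, the positions that DNMT1 maintains, numbered between 2 (Gbp2, Gbp3 and Ifi47) and 11 (Irgm1) per window, against a median of 7 over all windows. A match to these letters is a description of the sequence, and methylation was not measured in these libraries.

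Gene reads lay between 53433121 and 115526598 per library, so that 3 counts, the limit that a count of 0 allows, correspond to 0.0254 to 0.0558 CPM (counts per 1000000 reads of a library size scaled by edgeR's TMM factor). These limits, and the counting intervals below, cover counting error only. Dnmt1 itself read 394, 379 and 324 CPM in control replicates 1, 2 and 3 and 49.7, 54.3 and 50.7 CPM in the knockout libraries, a log2 fold change of -2.83 with a standard error of 0.11 (adjusted p = 8.1e-05, edgeR). Keratinocyte markers dominated every library, with a summed level of 33143 to 36562 CPM over 10 genes in control and 24707 to 25669 CPM in knockout libraries. Most of this sum was Krt5 and Krt14, the keratins of basal cells, with log2 fold changes of -0.50 (edgeR adjusted p = 0.038) and -0.61 (adjusted p = 0.028). Krt1 and Krt10, the keratins of differentiating cells, had values of -2.30 (adjusted p = 0.085) and -1.58 (adjusted p = 0.069) with overlapping libraries. Of the other markers, Dsg3, Sfn, Itgb4 and Itga6 lay between 0.024 and 0.18. Perp and Trp63 went the other way, at -0.34 (edgeR adjusted p = 0.35) and -0.26 (adjusted p = 0.38), with overlapping libraries. Since RNA of whole cultures was sequenced, fewer cells of a type and less RNA per cell cannot be told apart.

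Knockout keratinocytes had more RNA of Gbp2, Gbp7, Irgm1, Iigp1 and Ifi47 than control keratinocytes. These 5 of the 8 tested GTPase genes were called up, which means that the quasi-likelihood test of edgeR gave an adjusted p of 0.05 or less (Benjamini-Hochberg over all 16829 genes) and that the log2 fold change reached 1. Of all genes tested, 6.03% (1014) were called up and 0.392% (66) were called down, and no member fell (0 called down by edgeR or DESeq2, and 0 past the fold threshold downward at an unadjusted p under 0.05). In 7 of the 8 tested members each knockout library lay above each control library, an arrangement found for 18.2% of all genes tested. Igtp was the exception. The median log2 fold change of the 8 tested members was 2.13, whereas the median of all genes tested was -0.00. These counts describe the members that passed the filter and are not support for a direction of the family, because Iigp1 and Ifi47 passed it only through the knockout libraries.

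**Figure D1:**
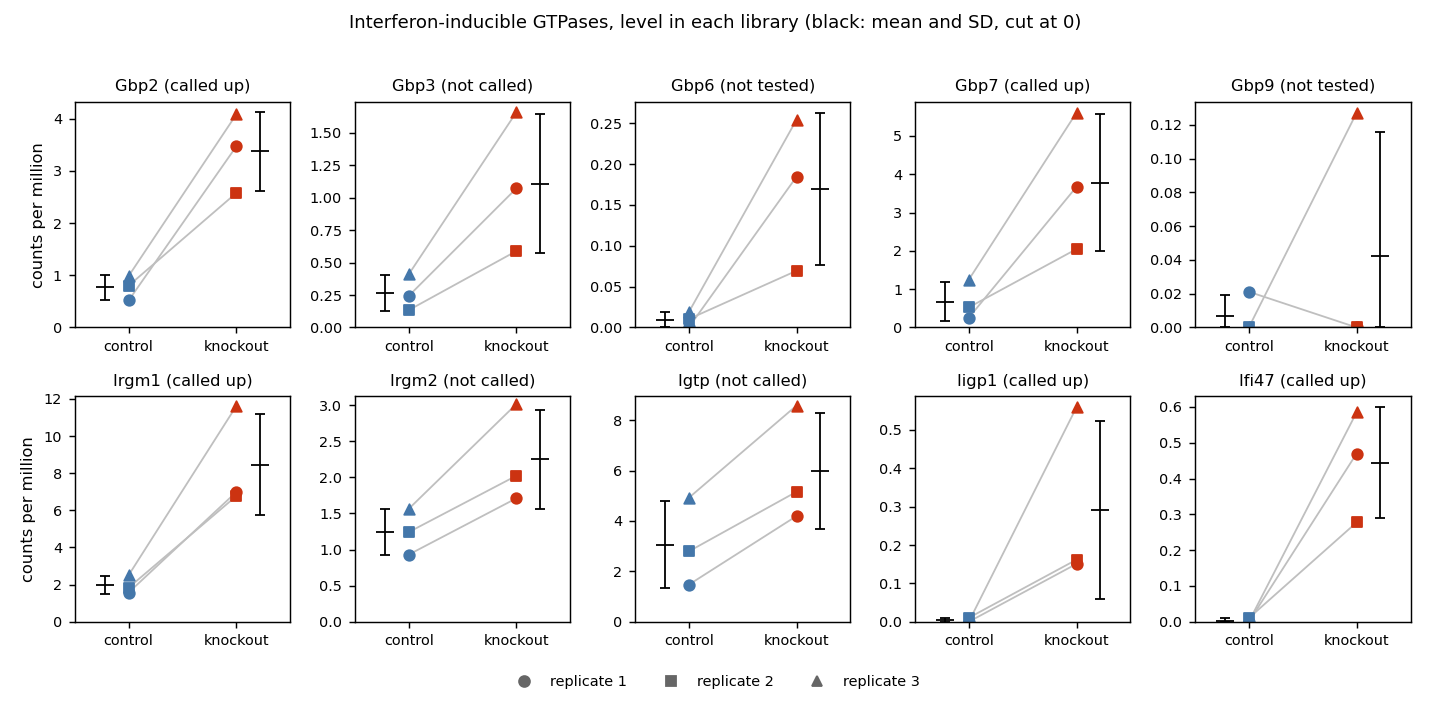
Level of each GTPase gene in CPM (vertical axis, from 0, a scale of its own in each panel) in the 3 control (blue) and 3 knockout (red) libraries, with symbols for the replicate number and grey lines between libraries of the same number, which shared a sequencing lane. Black marks give the mean and SD (n = 3), and replicate 3 (triangles) is the highest knockout library in all 10 panels.

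Markers of other cells moved with the groups in part. The summed level of 10 macrophage and dendritic cell markers was 3.91 to 6.03 CPM in control and 7.47 to 9.28 CPM in knockout libraries, with Itgam (log2 fold change 2.35, edgeR adjusted p = 0.047) and Csf1r (2.67, adjusted p = 0.027) called up. Of the other 8 genes, Ptprc, Adgre1, Lyz2, Tyrobp and Fcer1g were too low to test, with group means of at most 0.0755 CPM. Cd74 had means of 0.0434 and 0.338 CPM in control and knockout libraries, with each knockout library above each control (log2 fold change 3.30, edgeR adjusted p = 0.14). H2-Ab1 (2.07 and 2.28 CPM) and Cd14 (2.20 and 2.76 CPM) overlapped between the groups. Langerhans cell markers summed to 87.3 to 139 CPM in control and 158 to 177 CPM in knockout libraries, nearly all of it Mfge8, which was not called (log2 fold change 0.49, edgeR adjusted p = 0.14). Ly75 was called up (1.59, adjusted p = 0.012), Cd1d1 overlapped between the groups (-0.07, adjusted p = 0.95), and Cd207 had a mean of 0.0028 CPM in knockout libraries. The 8 measured T and NK cell markers summed to 1.27 to 2.21 CPM in control and 2.35 to 3.79 CPM in knockout libraries, most of it Thy1, with Cd3g and Nkg7 at 0 in all libraries. Mast cell markers summed to 3.44 to 8.41 and 10.9 to 15 CPM, nearly all of it Kit, with Cpa3, Fcer1a and Mcpt4 at 0.

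Melanocyte markers summed to 204 to 536 CPM in control and 646 to 873 CPM in knockout libraries. Of these, Dct had a log2 fold change of 0.94 (edgeR adjusted p = 0.072). Endothelial markers summed to 4.39 to 16.8 CPM and 14.1 to 22.4 CPM, with Pecam1 (log2 fold change 1.89, edgeR adjusted p = 0.0075) and Cdh5 (4.11, adjusted p = 0.0097) called up. Of the other endothelial markers, Tie1 was not called (2.35, adjusted p = 0.067), and Kdr overlapped between the groups, with means of 6.81 and 6.11 CPM in control and knockout libraries (-0.16, adjusted p = 0.93). Fibroblast markers overlapped between the groups, at 12.2 to 28 CPM in control and 12 to 58.8 CPM in knockout libraries. The part of such cells in the GTPase values was not tested.

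Among the guanylate-binding proteins, Gbp2 (ENSMUSG00000028270, GRCm38 chromosome 3, 142620602 to 142638008) read 0.518, 0.80 and 0.987 CPM in control replicates 1, 2 and 3. In the knockout libraries Gbp2 read 3.47, 2.58 and 4.09 CPM, so the lowest knockout library lay above the highest control. Its mean level rose from 0.768 ± 0.236 CPM to 3.38 ± 0.758 CPM (SD, n = 3). The log2 fold change was 2.15 with a standard error of 0.31 (edgeR adjusted p = 0.0074). Gbp2 kept its call under all 12 alternative settings.

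Gbp7 (ENSMUSG00000040253, chromosome 3, 142530342 to 142550149) was among the members with the widest spread between libraries of a group. It read 0.254, 0.523 and 1.25 CPM in the control and 3.67, 2.05 and 5.61 CPM in the knockout libraries. The groups did not overlap, and the log2 fold change was 2.52 with a standard error of 0.61 (edgeR adjusted p = 0.046). This call was lost when control replicate 2 (adjusted p = 0.16), knockout replicate 1 (0.12), knockout replicate 2 (0.061) or knockout replicate 3 (0.13) was left out, with log2 fold changes between 2.11 and 2.77. In the GENCODE M21 annotation 11.3% of its exon bases overlap the pseudogene Gm43802 on the same strand.

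Gbp3 (ENSMUSG00000028268, chromosome 3, 142560026 to 142573209) lay next to Gbp7 on the chromosome and moved by a like amount without being called. Its level was 0.243, 0.133 and 0.410 CPM in the control and 1.07, 0.590 and 1.66 CPM in the knockout libraries, with no overlap between the groups. The log2 fold change was 2.12 with a standard error of 0.54, and the adjusted p of 0.052 lay just above the threshold. With the replicate number as a block in the same edgeR fit Gbp3 was called (log2 fold change 2.09, adjusted p = 0.0085). DESeq2 (adjusted p = 0.0013), RLE scaling (0.0497) and the fit without a filter (0.014) called it too.

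Gbp6 and Gbp9 had too few reads to be tested, and both lie in the cluster of guanylate-binding proteins on chromosome 5. The row that the deposited names give as Gbp6 (ENSMUSG00000079362) held 0, 1 and 1 reads in control libraries, against 11, 6 and 30 in knockout libraries. Every knockout library thus held more reads than any control library, and the pooled ratio was 21.9 with an exact 95% counting interval of 5.73 to 186. Without the filter, edgeR gave this row an adjusted p of 0.016 and a fitted log2 fold change of 4.08, a size that depends on the prior count. GENCODE M21 assigns the same identifier to a transcript that spans Gbp10 and Gbp6, with 81.6% of its exon bases shared with these genes, so reads of Gbp6 and Gbp10 cannot be told apart here.

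Gbp9 (ENSMUSG00000029298, chromosome 5, 105077630 to 105139539) held 2, 0 and 0 reads in control libraries, against 0, 0 and 15 in knockout libraries. All of its knockout reads (100%) came from replicate 3, so the pooled ratio of 6.98 (exact 95% counting interval 1.62 to 62.9) describes that library. Its adjusted p without the filter was 0.52 (edgeR). Of the 5 guanylate-binding proteins, Gbp2 alone was called under every setting run.

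Among the regulatory immunity-related GTPases, Irgm1 (ENSMUSG00000046879, chromosome 11, 48861968 to 48871683) gave the most reads of any called member. It read 1.58, 1.84 and 2.51 CPM in the control and 7.0, 6.78 and 11.6 CPM in the knockout libraries, so the groups lay well apart. Its mean was 1.97 ± 0.484 CPM in control and 8.47 ± 2.74 CPM in knockout libraries (SD, n = 3). The log2 fold change was 2.11 with a standard error of 0.29 (edgeR adjusted p = 0.0059). Irgm1 kept its call under all 12 alternatives, with log2 fold changes between 1.81 and 2.31.

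The other regulators had smaller fitted values and were not called in the fit as reported. Irgm2 (ENSMUSG00000069874, chromosome 11, 58199618 to 58222782) read 0.930, 1.24 and 1.56 CPM in the control and 1.71, 2.02 and 3.02 CPM in the knockout libraries. Although these groups did not overlap, the log2 fold change of 0.86 (standard error 0.31, edgeR adjusted p = 0.14) was not called, nor was it under any alternative that tested it. The replicate block gave its lowest adjusted p (0.042), at a log2 fold change of 0.84 that stays under the fold threshold. Igtp (ENSMUSG00000078853, chromosome 11, 58199556 to 58207591) read 1.47, 2.79 and 4.91 CPM in the control and 4.19, 5.16 and 8.58 CPM in the knockout libraries. Control replicate 3 lay above knockout replicate 1, and the log2 fold change of 0.98 (standard error 0.46, edgeR adjusted p = 0.25) was not called.

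Libraries of 1 replicate number shared a sequencing lane, and within each number Igtp was higher in the knockout library, by 1.51, 0.89 and 0.80 on the log2 scale for numbers 1, 2 and 3. With the replicate number as a block, Igtp was called (log2 fold change 1.06, edgeR adjusted p = 0.027). The exons of Igtp and Irgm2 overlap on the same strand over 8.01% of the exon bases of Igtp and 4.39% of those of Irgm2. Whether the change of Irgm1 differed from those of Igtp and Irgm2 was not tested.

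The effectors Iigp1 and Ifi47 went from almost no reads to a low level. Ifi47 (ENSMUSG00000078920, chromosome 11, 49076587 to 49096974) held 0, 1 and 0 reads in control libraries, against 28, 24 and 69 in knockout libraries, equal to 0.470, 0.278 and 0.585 CPM. The pooled ratio was 113 with an exact 95% counting interval of 19.8 to 4484, and edgeR called the rise (adjusted p = 0.0038) under every alternative that tested the gene. Iigp1 (ENSMUSG00000054072, chromosome 18) held 0, 1 and 0 reads in control libraries, against 9, 14 and 66 in knockout libraries, a pooled ratio of 82.8 (interval 14.5 to 3308). Knockout replicate 3 supplied 74.2% of the knockout reads of Iigp1 and 57.0% of those of Ifi47. The call of Iigp1 (edgeR adjusted p = 0.017) was lost without control replicate 2, the control library with its only read (adjusted p = 0.081), and held without knockout replicate 3.

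Set per exon length, as CPM per kilobase of exon (RPKM), the members stayed at low levels in both groups. In control libraries Igtp stood highest at 1.51 ± 0.859 RPKM, and its range of mean ± SD did not reach that of the next gene. Irgm1 (0.340 ± 0.0833), Irgm2 (0.337 ± 0.0858) and Gbp2 (0.305 ± 0.0938) followed with overlapping ranges, then Gbp7 (0.120 ± 0.0915) and Gbp3 (0.0803 ± 0.0426). In knockout libraries the order by mean was Igtp (2.96 ± 1.14), Irgm1 (1.46 ± 0.472), Gbp2 (1.34 ± 0.301), Gbp7 (0.673 ± 0.318), Irgm2 (0.610 ± 0.185), Gbp3 (0.339 ± 0.164), Ifi47 (0.180 ± 0.0628), Iigp1 (0.0499 ± 0.0400), Gbp6 (0.0393 ± 0.0217) and Gbp9 (0.00819 ± 0.0142). Of these neighbours, Gbp2 and Gbp7, and Ifi47 and Iigp1, had ranges that did not overlap.

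Averaged over the tested members, log2 CPM deviated from the group mean by -0.43, -0.00 and 0.43 in control replicates 1, 2 and 3 and by -0.16, -0.44 and 0.60 in the knockout replicates, so that replicate 3 had the highest average in both groups. Within the replicate numbers, and hence within the lanes, the median log2 ratio of knockout over control over the tested members was 2.41, 1.90 and 2.09 for numbers 1, 2 and 3. When control replicate 2 was left out, 3 members remained called (Gbp2, Irgm1 and Ifi47), and without knockout replicate 3 the called members were Gbp2, Irgm1, Iigp1 and Ifi47. As the plot of settings shows, no tested member changed direction under any alternative that tested it.

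**Figure D2:**
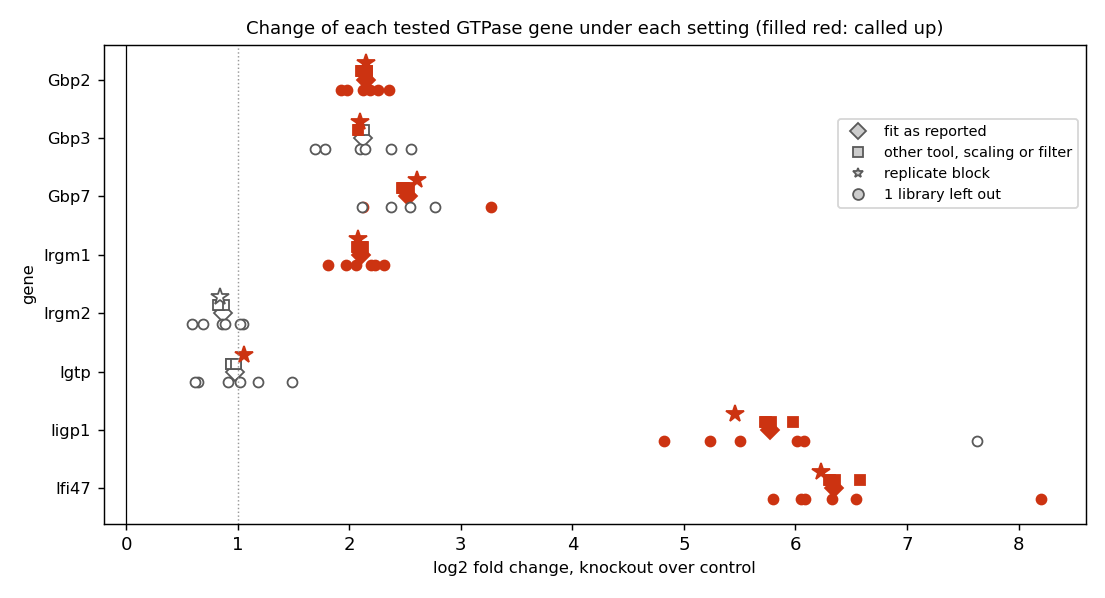
Log2 fold change of knockout over control (horizontal axis) for each of the 8 tested GTPase genes under the fit as reported (diamonds), other tools, scalings or filters (squares), the replicate block (stars) and with each of the 6 libraries left out (circles), filled red where the gene was called up. Gbp2, Irgm1 and Ifi47 are red throughout, Igtp only under the block, and Irgm2 at no setting.

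Relatives of the members gave few reads. Of 26 related GTPase genes looked up, not all of them known to respond to interferon (further Gbp and Irg genes, the Tgtp pair, the Gvin genes, Mx1 and Mx2), 23 had a row, 3 of these were at 0 in every library, and 4 passed the filter. None of these 4 was called by edgeR, a list too short to set 0 calls apart from the 6.03% of all genes tested that were called up. None had an unadjusted p under 0.05. Irgq, a relative that is expressed without interferon, was the one well-expressed gene, at 28.5, 33.9 and 41.3 CPM in control and 39.8, 46.7 and 38.8 CPM in knockout libraries (log2 fold change 0.27, edgeR adjusted p = 0.35). Mx1, an interferon-inducible GTPase of another family, read 0.169, 0.144 and 0.0931 CPM in control and 0.235, 0.185 and 0.186 CPM in knockout libraries, with a log2 fold change of 0.54 (adjusted p = 0.50). Mx2 and 9930111J21Rik2 had larger log2 fold changes of 1.73 (adjusted p = 0.35) and 1.29 (adjusted p = 0.45), with libraries that overlapped between the groups. The median of the 4 tested relatives was 0.91 on the log2 scale, beside -0.00 over all genes tested. Mx2 (4, 1 and 12 reads in control libraries) and 9930111J21Rik2 (7, 2 and 10) passed the filter only with the knockout libraries. This median is therefore not support for a direction.

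Among relatives under the filter, Gbp4 held 0, 1 and 0 reads in control libraries, against 10, 5 and 14 in knockout libraries. It was the 1 relative called by DESeq2 (adjusted p = 0.031) and by edgeR without the filter (adjusted p = 0.029). Gbp8 held 0 reads in all 3 control libraries, against 9, 1 and 8 in knockout libraries. Irgc1, a relative known from the testis, held 2, 2 and 0 reads in control libraries, against 6, 5 and 6 in knockout libraries. Gbp5 was not analysed here, because the row with that deposited name carries an identifier that GENCODE M21 gives to Gbp2b, and this row held 0, 0 and 1 reads in control libraries, against 1, 0 and 8 in knockout libraries.

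Near-identical copies limit these counts, since reads that fit more than 1 place were not counted. Of the 50-base windows of their GENCODE M21 transcripts, the members Gbp2, Gbp3, Iigp1 and Irgm1 shared 2.03%, 3.75%, 1.69% and 0.379% with transcripts of other genes. For Ifi47, Irgm2, Gbp9, Igtp and Gbp7 the shares were 4.81%, 7.83%, 8.05%, 11.8% and 12.7%, and for the row used as Gbp6 the share was 100%. Tgtp1 and Tgtp2, effectors that are copies of one another, shared 81.2% and 86.6% of their windows, and their levels from uniquely mapped reads are uncertain. In the promoter windows, 7 of the 10 matched relatives held the ISRE core and 5 the GAS core.

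Genes of interferon signalling were looked up in the same way. Of 31 listed genes 23 were tested, 4 were called up (beside 6.03% of all genes tested) and none was called down by edgeR (DESeq2 called 4 up and 0 down, and 0 had an unadjusted p under 0.05 with a fall of at least 1 on the log2 scale). The median log2 fold change of the 23 was 0.12. The 6 interferon genes themselves did not pass the filter, and Ifng, Ifnl2 and Ifnl3 were at 0 in all 6 libraries. None of 6 receptor genes and none of 7 transducer genes was called by edgeR or DESeq2. These lists are too short to set 0 calls apart from the 6.03% of all genes tested. At an unadjusted p under 0.05 stood 1 gene of each kind, the receptor chain Il10rb (log2 fold change 0.33) and the transducer Irf9 (0.73). Ifngr1, a chain of the interferon gamma receptor, read 29.3, 33.2 and 38.1 CPM in control and 28, 33.8 and 33.6 CPM in knockout libraries (log2 fold change -0.08, edgeR adjusted p = 0.82).

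The called genes of this list were 3 transcriptional regulators and 1 inhibitor. Irf1, a factor that binds ISRE elements, read 4.25, 3.86 and 5.57 CPM in control and 16.6, 18.3 and 18.4 CPM in knockout libraries, a log2 fold change of 1.96 (edgeR adjusted p = 0.0010). Nlrc5, the transactivator of MHC class I genes, read 0.666, 1.31 and 2.25 CPM in control and 33.4, 27.2 and 43.7 CPM in knockout libraries (log2 fold change 4.65, adjusted p = 0.0014). Irf8, a factor known from blood cells, stayed low with 0.0211, 0.0513 and 0.0558 CPM in control and 0.285, 0.301 and 0.356 CPM in knockout libraries. With 2, 5 and 3 reads in control libraries, it passed the filter through the knockout libraries alone, as did Iigp1 and Ifi47. Its call (log2 fold change 2.89, edgeR adjusted p = 0.011) was lost without control replicate 2 (adjusted p = 0.056).

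Usp18, which removes ISG15 and damps the type I receptor, read 0.127, 0.462 and 0.782 CPM in control and 1.91, 3.25 and 5.64 CPM in knockout libraries (log2 fold change 3.02, edgeR adjusted p = 0.032). Without control replicate 2 or without any 1 of the 3 knockout replicates it was not called (adjusted p between 0.052 and 0.12). Without control replicate 2 the list held 2 called genes, Irf1 and Nlrc5, in place of 4. Ifngr1 was not called under any of the 12 alternatives.

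**Figure D3:**
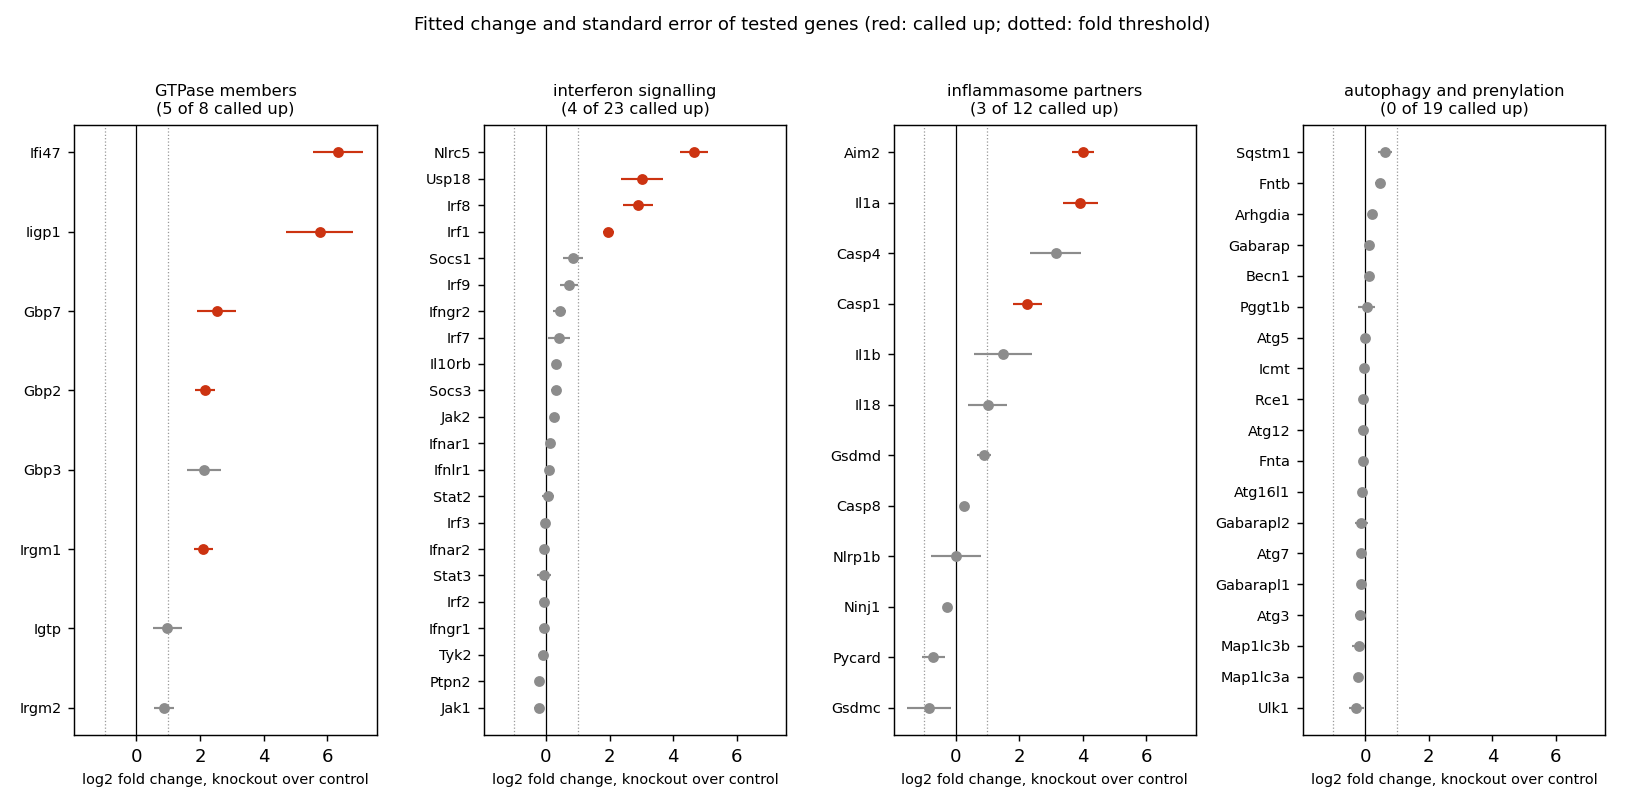
Log2 fold change of knockout over control with its standard error (horizontal axis) for the tested genes of 4 lists, red where called up by edgeR and grey where not, with dotted lines at the fold threshold. Of the tested genes 5 of 8 members, 4 of 23 interferon signalling genes, 3 of 12 inflammasome genes and 0 of 19 autophagy and prenylation genes are red, beside 6.03% of all genes tested, and 1 of the 23 signalling genes is not drawn.

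Guanylate-binding proteins feed the inflammasomes, and of 14 listed genes of that pathway 12 were tested, 3 were called up (beside 6.03% of all genes tested) and none was called down by edgeR (DESeq2 called 4 up and 0 down, and no gene fell by at least 1 on the log2 scale with an unadjusted p under 0.05). Aim2, the sensor of cytosolic DNA, read 0.529, 0.934 and 1.40 CPM in control and 16.1, 13.1 and 16.3 CPM in knockout libraries (log2 fold change 4.01, edgeR adjusted p = 0.00097). Il1a, an alarmin of keratinocytes, read 9.57, 2.53 and 4.45 CPM in control and 111, 92.0 and 49.5 CPM in knockout libraries, a log2 fold change of 3.93 (adjusted p = 0.0057). Casp1, the protease of the inflammasome, read 0.201, 0.277 and 0.186 CPM in control and 0.939, 0.590 and 1.69 CPM in knockout libraries (log2 fold change 2.26, adjusted p = 0.024). Its call was lost without control replicate 2, control replicate 3, knockout replicate 1 or knockout replicate 3 (adjusted p between 0.067 and 0.077).

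Casp4, the gene of caspase-11, which binds bacterial lipopolysaccharide, held 0, 4 and 4 reads in control libraries, against 12, 29 and 47 in knockout libraries. It passed the filter through the knockout libraries alone, as did Iigp1 and Ifi47. Its adjusted p of 0.054 (edgeR, log2 fold change 3.15) lay above the threshold, and with the replicate block it was called (adjusted p = 0.036). Gsdmd, the pore former that both caspases cut, read 1.32, 1.84 and 1.68 CPM in control and 2.85, 3.12 and 2.99 CPM in knockout libraries. The groups did not overlap and its adjusted p was 0.040, but the log2 fold change of 0.89 (standard error 0.21) lay under the fold threshold. Pycard, the adaptor ASC, had a log2 fold change of -0.70 (adjusted p = 0.31).

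The conjugation genes of autophagy place these GTPases on vacuoles, and prenyl transferases attach a lipid to Gbp2. All 19 listed genes of these groups were tested, and 0 were called in either direction by edgeR, 0 by DESeq2, and 0 passed the fold threshold at an unadjusted p under 0.05. Of all genes tested, edgeR called 6.03% up and 0.392% down, so 0 of 19 lies near that share. Sqstm1, the autophagy receptor p62, had the largest log2 fold change of the list (0.63, edgeR adjusted p = 0.14), and Fntb, a farnesyl transferase subunit, the lowest adjusted p (0.11, log2 fold change 0.47). In both, each knockout library lay above each control library, as in 3 of the 19 genes, beside 18.2% of all genes tested. In 1 gene, Atg16l1 (log2 fold change -0.10, edgeR adjusted p = 0.62), each knockout library lay below each control library. Pggt1b, a subunit of the transferase that prenylates Gbp2, had a log2 fold change of 0.04 (adjusted p = 0.96). The medians of the inflammasome and autophagy lists were 0.95 and -0.06 on the log2 scale, beside -0.00 over all genes tested. The inflammasome median includes Casp4, which passed the filter through the knockout libraries, so it is not support for a direction.

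The members fall into 5 runs of neighbouring GTPase genes on chromosomes 3, 5, 11 (2 runs) and 18. To see whether genes around them moved, the 2 nearest tested protein-coding genes on either side of each run were listed, 20 genes in all. Of these, 1 was called up, beside the 6.03% of all genes tested, and 0 were called down by edgeR (DESeq2 called 1, and 0 fell past the fold threshold at an unadjusted p under 0.05). Their median log2 fold change was 0.07, with a range of -0.51 to 1.44. The called neighbour was Kyat3, an aminotransferase gene 63.0 kb above the run of Gbp7, Gbp3 and Gbp2 on chromosome 3, which read 23.0, 22.5 and 20.6 CPM in control and 59.8, 60.3 and 59.1 CPM in knockout libraries (log2 fold change 1.44, edgeR adjusted p = 0.00037). On chromosome 11, Trim7, 9.76 kb from Irgm1, and Mrpl22, 8.17 kb from the run of Igtp and Irgm2, had log2 fold changes of -0.27 (adjusted p = 0.17) and -0.23 (adjusted p = 0.39). On the other side of the run of Igtp and Irgm2, 4930438A08Rik, 52.0 kb away, had a log2 fold change of 0.89 (edgeR adjusted p = 0.034), under the fold threshold, with each knockout library above each control. Lrrc8b, 69.3 kb above the run on chromosome 5, had a log2 fold change of 0.79 (adjusted p = 0.051), also without overlap between the groups. The same held for both nearest tested genes around Iigp1 on chromosome 18, Chsy3 at 676 kb (log2 fold change 0.96, adjusted p = 0.14) and Smim3 at 81.6 kb (0.42, adjusted p = 0.13). In Trim7, and in Gtf2b at 127 kb above the run on chromosome 3 (-0.13, adjusted p = 0.45), each knockout library lay below each control library. The arrangement with each knockout library above each control was found for 18.2% of all genes tested.

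**Figure D4:**
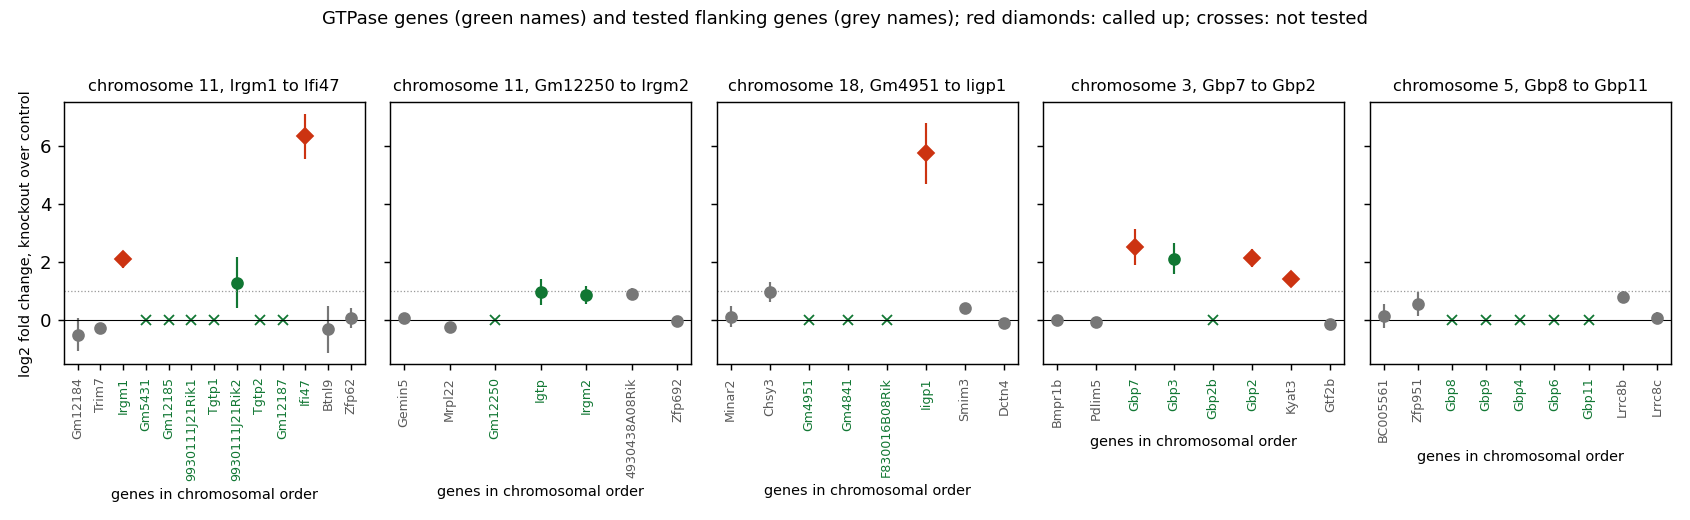
Log2 fold change of knockout over control with its standard error (vertical axis) for the GTPase genes (green names) and the tested flanking genes (grey names) of the 5 runs, in chromosomal order. Red diamonds were called up, circles were not, and crosses at 0 mark GTPase genes too low to test; Kyat3 on chromosome 3 is the 1 red diamond among the 20 flanking genes.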

How the data were processed

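Poly(A) RNA of cultured keratinocytes was sequenced in 3 control and 3 knockout libraries, grouped by the genotype label. Per the methods and the submitters' processing notes, the authors trimmed reads with cutadapt, removed ribosomal reads with Bowtie2, aligned with STAR and counted reads that map to 1 place with HTSeq. The processing notes name the mouse build GRCm38, whereas the methods name a human build for the STAR index, and the deposited identifiers are mouse genes. The deposited values are raw counts per Ensembl gene, and the strand setting is not given in the sources used here. Entries that name no gene (5 entries, 8.73% to 12.9% of counted reads) were left out. The authors' fold changes, p-values and normalized counts in a further table, and the repeat tables, were not used. From that table only gene names were taken, which placed Gbp6.

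Libraries were compared with edgeR 4.0.16 in R 4.3.3 (TMM, filterByExpr with minimum counts of 10 and 15, quasi-likelihood test, Benjamini-Hochberg over all tested genes), with calls at adjusted p of at most 0.05 and log2 fold changes of 1 or more in either direction. Standard errors were derived from the log2 fold change and its F statistic. Alternatives were DESeq2 1.42.0, RLE and upper-quartile factors, no filter, a mean of at least 1 RPKM in either group, a replicate block and leaving out each library. Scripts were tested on simulated data. Symbols matched 42548 of 43629 identifiers, and positions, exon lengths and transcripts came from GENCODE M21 on GRCm38. The promoter windows came from RefSeq, and Python 3.11.15 with pandas 2.3.3 and matplotlib 3.10.9 drew the figures.

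Replicate numbers pair the libraries. Libraries of 1 number shared a lane according to the headers of the table, and deviations from the group means correlated by 0.43, 0.28 and 0.30 for numbers 1, 2 and 3. The members, the gene lists and the tests were chosen with earlier results of these data known. Values are printed for all members, for genes of the other lists that were called, for Irf1, Ifngr1, Irgc1, Casp4 and Gsdmd, for the row deposited as Gbp5 (Gbp2b in GENCODE), for flanking genes, and for the 5 genes whose deviations correlated best with the mean of the members. Irgq, Mx1, Mx2, 9930111J21Rik2, Il10rb, Irf9, Fntb, Gbp4, Gbp8, Pycard and Sqstm1 were added after their values were seen. So were Pggt1b, Tgtp1, Tgtp2, Atg16l1 and the marker genes that were not called. The planned comparison of protein sequences was replaced by shared 50-base windows of transcripts. A further gene, not a member, whose values were to be printed is not reported here.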

Additional observations from a re-analysis of the deposited data

How the results depend on the processing

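The 5 called members became 7 with DESeq2 and 7 without a filter on low counts (Gbp3 and Gbp6 in addition in both), 6 with RLE factors, 7 with the replicate block, and 2 where a mean of at least 1 RPKM was asked for, a setting under which only 3 members were tested. With 1 library left out the count lay between 3 (without control replicate 2) and 5. The median log2 fold change of the tested members lay between 1.89 (without knockout replicate 3) and 2.45 (without control replicate 3), and was 2.12 with the block. Of the 26 related GTPase genes, DESeq2 called 1 and edgeR without the filter called 1, Gbp4 in both. With 1 library left out, 2 to 5 interferon signalling genes were called, the fewest without control replicate 2. Over all genes, the 1014 rises became 1173 with the block, 395 at a mean of at least 1 RPKM and 559 to 1183 with 1 library left out (559 without control replicate 2 and 591 without knockout replicate 1). The 66 falls became 95 with the block, 122 with DESeq2, 107 without the filter, 35 at 1 RPKM and 15 to 180 with 1 library left out (180 without control replicate 1, 15 without control replicate 2 and also without knockout replicate 1). The fitted log2 fold change of Ifngr1 was between -0.17 and 0.024 with 1 library left out, and above 0 without control replicate 3 (0.024) or knockout replicate 1 (0.01). Of 16829 genes tested in the fit as reported, 11453 were tested at a mean of at least 1 RPKM, whereas DESeq2 and the fit without a filter took in 27640. The cause of the changes was not tested. Besides Gbp3, Igtp and Casp4, the block changed no call of a gene named with its value on the planned lists. With 3 libraries a group, 1 or 2 counts over the control libraries limit the precision for Gbp6, Gbp9, Iigp1 and Ifi47.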

Other observations

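The tested members varied together within the groups. Over the 6 libraries, deviations of log2 CPM from the group mean correlated positively in all 28 pairs of tested members, with Pearson's r between 0.24 and 0.98 and a median of 0.70. These libraries differ in depth and lane, each correlation rests on 6 points, and 2 group means were removed from them, so the values are a description. The 5 other genes whose deviations were most like the mean of the members, among 12458 tested genes with a mean of at least 1 CPM, were Gm9949, Rfx7, Aspm, Zdhhc15 and Tdrd3, with r between 0.99 and 0.996. None of these 5 was called by edgeR, and their log2 fold changes lay between -0.63 and -0.14. They are the highest of 12458 correlations over 6 points, a selection that by itself gives high values, so no conclusion is drawn from them. Between the GTPase genes Irgm1 and Ifi47 on chromosome 11 lies 1 tested protein-coding gene of another kind, Psme2b. Genes that were not tested or do not code for protein were not counted there.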
